A study of Mus musculus with 46 samples.

Results

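Unperturbed mouse pancreatic islets were set beside unperturbed mouse liver: 8 islet RNA-seq libraries from the animals that served as controls for the Tfam knockout and 6 liver libraries from the control animals of a separate liver experiment, 14 of the 46 libraries of the series. The members were taken from the submitters' labels, with no measured value. The study profiled islets and livers in which regulators of mitochondrial DNA, mitochondrial fusion or mitochondrial removal had been deleted, and here each tissue enters with its controls alone. The islet controls carry the genotype label Tfam control. They comprise 5 female and 3 male libraries, and the islets were kept in culture overnight after isolation. The livers carry the genotype label control, were flash frozen, and have the prefix AAV in their library names. Neither the agent the control livers received nor a Cre driver, promoter, age or sex of those animals is given in the labels. Tissue, experiment, culture and freezing therefore cannot be told apart in any difference below, and only differences of at least 4-fold are counted as calls. A second control islet group, the 4 Clec control libraries on RFD, the diet named in the labels, is given beside the results where it bears on them. The 6 Clec control libraries on HFD, the other diet named in the labels, are given for some results and among the alternatives.

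Both cell types at the heart of these organs handle glucose and both depend on mitochondria, but for different ends. The beta cell, the insulin-producing cell of the islet, oxidises glucose through glycolysis and the citric acid cycle, and the ATP made by oxidative phosphorylation closes a potassium channel and lets calcium trigger insulin release. The hepatocyte uses its mitochondria to oxidise fatty acids, make ketone bodies, release glucose made from lactate and amino acids, and turn ammonia into urea.

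The contrast of metabolic roles was plain in pairs of related genes of which each tissue had another member. For 2 pairs almost all transcripts came from one gene in liver and from the other in islets. They are the glucose-6-phosphatases G6pc and G6pc2, which remove phosphate from glucose 6-phosphate, and the PEP carboxykinases Pck1 (cytosolic) and Pck2 (mitochondrial), which make phosphoenolpyruvate. The stretches of 250 bases before the start of these 4 genes are shown because they are the DNA next to the start of transcription of genes with opposite use in the 2 tissues. They were chosen after the values were seen. They come from RefSeq on GRCm38.p6, which also sets the starts (the GENCODE gene models of G6pc and Pck1 begin inside the printed stretches, at 101367561 and 173153048), run 5′ to 3′ on the strand of the gene, and carry in capitals every match, on either strand, of the TATA box core written TATAAA, the partial HNF1 site written GTTAAT, the core of the cAMP response element written ACGTCA and the GC box written GGGCGG.
G6pc, chr11:101367466-101367715, plus strand: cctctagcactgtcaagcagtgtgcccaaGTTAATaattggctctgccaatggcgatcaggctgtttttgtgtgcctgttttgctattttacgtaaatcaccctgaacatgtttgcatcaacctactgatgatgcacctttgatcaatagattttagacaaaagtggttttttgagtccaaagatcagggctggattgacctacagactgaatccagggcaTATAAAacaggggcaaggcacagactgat
G6pc2, chr2:69210823-69211072, plus strand: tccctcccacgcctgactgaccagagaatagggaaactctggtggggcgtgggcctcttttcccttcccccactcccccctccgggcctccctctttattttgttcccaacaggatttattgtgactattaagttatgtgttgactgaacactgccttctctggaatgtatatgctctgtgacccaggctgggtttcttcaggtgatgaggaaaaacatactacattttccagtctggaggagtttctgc
Pck1, chr2:173152823-173153072, plus strand: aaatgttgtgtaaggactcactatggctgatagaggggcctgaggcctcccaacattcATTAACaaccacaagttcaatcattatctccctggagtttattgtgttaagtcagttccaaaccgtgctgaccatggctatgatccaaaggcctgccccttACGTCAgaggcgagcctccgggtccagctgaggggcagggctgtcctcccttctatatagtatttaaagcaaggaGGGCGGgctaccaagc
Pck2, chr14:55540016-55540265, plus strand: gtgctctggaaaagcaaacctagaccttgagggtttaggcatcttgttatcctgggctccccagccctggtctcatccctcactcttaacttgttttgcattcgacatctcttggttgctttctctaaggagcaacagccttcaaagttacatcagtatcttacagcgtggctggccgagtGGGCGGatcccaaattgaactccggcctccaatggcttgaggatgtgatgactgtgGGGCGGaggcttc
The G6pc stretch held the TATA box core, ending 24 bases before the start, and the partial HNF1 site, beginning 221 bases before it. The Pck1 stretch held the partial HNF1 site on the opposite strand, the core of the cAMP response element and the GC box. The Pck2 stretch held the GC box at 2 places and none of the other 3 motifs, and the G6pc2 stretch, shown for the first of its 2 listed starts, held none of the 4. Over all 32851 stretches of this length in the table, the TATA box core was found in 12.4%, the partial HNF1 site in 6.43%, the core of the cAMP response element in 6.47% and the GC box in 32.7%. A match of letters is a description and not a site of binding.

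The islet libraries held 56207497 to 81661325 counts and the liver libraries 41961114 to 56894510, and 18004 genes were tested with edgeR's quasi-likelihood test. Levels are given as TPM, transcript abundance scaled for length and depth, and differences as log2 fold changes, islets minus liver, on library sizes scaled by TMM, edgeR's trimmed mean of M-values. The 6 islet hormone genes Ins1, Ins2, Gcg, Sst, Ppy and Iapp took 50.4 ± 2.44% of all TPM in islets (SD, n = 8), and 4 to 7 genes made up 50% of the TPM there against 58 to 63 genes in liver. The median difference over all genes was 0.18 under TMM and 0.86 on total counts without scaling, a typical shift of 0.67 toward islets. TMM thus places islet genes lower, relative to liver, than total counts or TPM do, and values on total counts are given for list counts that moved by over 1.5 times and for single genes discussed whose call ended. By adjusted p alone 85.5% of genes differed, so the size of a difference and not its p was read. At least 4-fold, 3854 genes (21.4%) were higher in islets and 3007 (16.7%) higher in liver, so 56.2% of the calls were on the islet side. On total counts 5022 genes (27.9%) and 2269 (12.6%) passed, with 68.9% on the islet side. Islet replicates 3 and 4 stood apart in several summed levels, and no gene named here lost a 4-fold call when either was left out.

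The tissue labels fitted the defining markers. Ins2 ranged from 230633 to 330422 TPM in islets, with a median of 288683, and was at most 2 counts in any liver library. Alb, the albumin gene of hepatocytes, ranged from 53706 to 95733 TPM in liver, with a median of 73101, and from 0.471 to 1.07 in islets. Each of these genes separated the tissues without overlap. All 30 genes of the insulin secretion machinery were at least 4-fold higher in islets, and all 53 liver plasma protein genes found were at least 4-fold higher in liver. In bulk tissue, fewer cells of a type and less RNA per cell cannot be told apart, and neither tissue is made of 1 cell type. The 23 markers of acinar cells, the enzyme-making cells of the exocrine pancreas, summed to between 2491 TPM (replicate 5) and 19315 TPM (replicate 4) in islets and to at most 84.5 in liver, and 22 of 22 tested were higher in islets. Of 13 macrophage markers 12 were at least 4-fold higher in liver, among them Clec4f of the resident Kupffer cells, at 131 to 264 TPM in liver and 0 counts in every islet library. Of 14 markers of stellate cells and fibroblasts, 8 were at least 4-fold higher in liver. The part of these other cells in the metabolic differences was not tested.

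Genes of the mitochondrial genome took a larger share of the liver libraries. The 13 protein and 2 ribosomal RNA genes of mitochondrial DNA held between 1.04 and 1.34% of the counts in islets, with a median of 1.22%, and between 3.37 and 4.62% in liver, with a median of 3.74%. The ranges of the tissues did not overlap, with means of 1.20 ± 0.115% (SD, n = 8) and 3.9 ± 0.472% (SD, n = 6). Of 11 protein genes tested 8 were at least 4-fold higher in liver, against the background of 16.7%, with a median difference of -2.22 for the 11 and 0.18 for all genes. On total counts 2 of the 11 passed 4-fold and the median was -1.56. The 11 genes, and the 8 called under TMM, include some of the low-count genes described below, whose values are uncertain. The gene of cytochrome b, mt-Cytb, stood at 4031 to 5407 TPM in islets (median 4797) and 13831 to 20490 in liver (median 17044), a difference of -2.43 ± 0.14 (SE; edgeR quasi-likelihood test, adjusted p = 5.2e-11) that was -1.76 on total counts. The difference of mt-Nd5, a complex I subunit, was smaller, at -1.64 ± 0.17, and missed the 4-fold limit. The small ribosomal RNA gene mt-Rnr1 was further apart than the protein genes named here, at -3.87 ± 0.14.

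The second islet group qualified this result. In the Clec control RFD islets the share was 1.48% and 1.31% in replicates 1 and 2 and 2.91% and 3.0% in replicates 3 and 4. In the 6 Clec control HFD islet libraries it was 1.38 to 3.06%, so these 3 control islet groups spanned 1.04 to 3.06%. With the Clec control RFD islets in place of the Tfam controls, the differences from the same livers for mt-Nd1, mt-Nd2, mt-Nd4, mt-Cytb and mt-Co1 were -1.11, -1.78, -1.04, -1.12 and -1.65, all short of 4-fold. The level of mt-Nd6, the protein gene read from the other strand of mitochondrial DNA, was 13.6 to 36.9 TPM in the Clec control RFD islets against 1723 to 2527 in the Tfam control islets, a gap between experiments larger than that between tissues. Values of mt-Co2, mt-Co3, mt-Atp6, mt-Atp8, mt-Nd3 and mt-Nd4l are uncertain. They reached at most 58 counts in any of the Tfam control islet and liver libraries, where the other 7 protein genes were at 808 TPM or more, and near-identical copies of mitochondrial DNA lie in the nuclear genome.

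**Figure D1:**
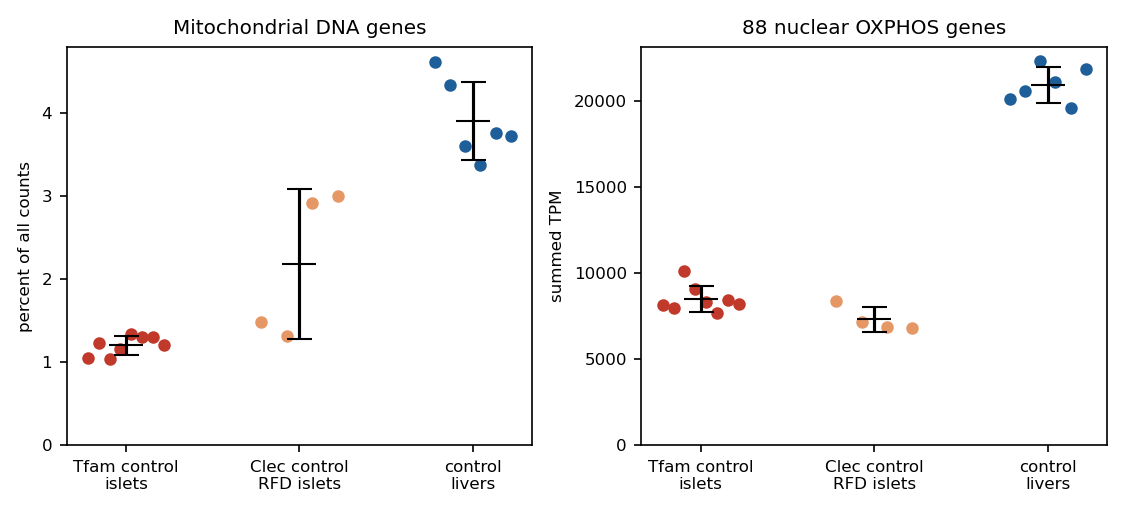
Percent of all counts from 15 mitochondrial DNA genes (left) and summed TPM of 88 nuclear oxidative phosphorylation genes (right), 1 point per library, with the mean and SD of each group in black. Livers lie above both islet groups in both panels, and the Clec control RFD islets split into 2 libraries near 1.4% and 2 near 3.0%.

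The nuclear genes of oxidative phosphorylation, the respiratory chain and ATP synthase, were lower in islets almost throughout, and by a narrow range. Their summed TPM was 8482 ± 760 in islets (SD, n = 8; range 7699 to 10094) and 20933 ± 1048 in liver (SD, n = 6; range 19616 to 22345), with no overlap. Of 86 genes tested, 80 were lower in islets, 38 by at least 4-fold, and 2 were at least 4-fold higher in islets. The median difference was -1.93. Because so many members lay near the limit, the count depended on the scaling: on total counts 5 of the 86 passed 4-fold on the liver side, with a median of -1.27. Over all genes 16.7% passed on the liver side under TMM and 12.6% on total counts. The nuclear oxidative phosphorylation genes thus passed more often than all genes under TMM and less often on total counts. The TPM of mitochondrially encoded proteins per nuclear oxidative phosphorylation TPM was 2.49 ± 0.424 in islets and 3.42 ± 0.594 in liver, and these ranges overlapped (1.78 to 3.02 and 2.79 to 4.25). Islet replicate 3 had the highest nuclear level and the lowest ratio of its group. In the Clec control islets the ratio was 5.16 ± 2.63 on RFD (SD, n = 4; range 2.86 to 7.61). On HFD it was 5.37 ± 1.90 (SD, n = 6; range 2.77 to 7.88). Both means lay above that of liver, so the direction of this difference depended on the islet group.

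By complex, 10 of 37 nuclear subunits of complex I, the NADH dehydrogenase, were at least 4-fold higher in liver, with a median of -1.70. On total counts 1 of the 37 passed, with a median of -1.04. The shares over all genes were 16.7% under TMM and 12.6% on total counts. Ndufb9 was at 47.9 to 66.4 TPM in islets (median 53.7) and 227 to 288 in liver (median 257). For complex III, which passes electrons to cytochrome c, the count was 8 of 10 and the median -2.28, and on total counts 2 of 10 and -1.61. Its heme-carrying subunit Cyc1 was at 43.7 to 64.3 TPM in islets (median 56.5) and 298 to 323 in liver (median 312), a difference of -3.08 ± 0.076, past 4-fold on total counts as well (-2.40). Complex V, the ATP synthase, had 8 of 18 and a median of -1.92, and on total counts none of the 18, as its catalytic subunit gene Atp5b moved from -2.20 to -1.53. Its inhibitor Atpif1 went the other way, at 39.2 to 76.1 TPM in islets and 11.6 to 17.9 in liver, a difference of 1.34 ± 0.18 that missed 4-fold.

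Complex IV, cytochrome c oxidase, held both exceptions. Its median was -2.08, and 10 of 17 subunit genes were at least 4-fold higher in liver (1 of 17 and a median of -1.42 on total counts), but the tissue isoforms Cox6a2 and Cox4i2 were higher in islets. Cox6a2, known as the heart and muscle form of subunit 6A (GRCm38 chromosome 7, 128205435 to 128206387, minus strand), was at 80.0 to 179 TPM in islets, with a median of 143, and at 0 to 0.298 in liver. The groups did not overlap, and the difference was 9.04 ± 0.35 (adjusted p = 2e-13). Its widely expressed counterpart Cox6a1 was at 217 to 283 TPM in islets and 761 to 866 in liver, a call that ended on total counts. Cox6a1 thus made up 64.2 ± 7.94% of the pair's TPM in islets and 99.98% in liver. Cox4i2, an isoform known for its response to oxygen, reached only 1.85 to 3.54 TPM in islets, where Cox4i1 held 98.7% of that pair.

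**Figure D2:**
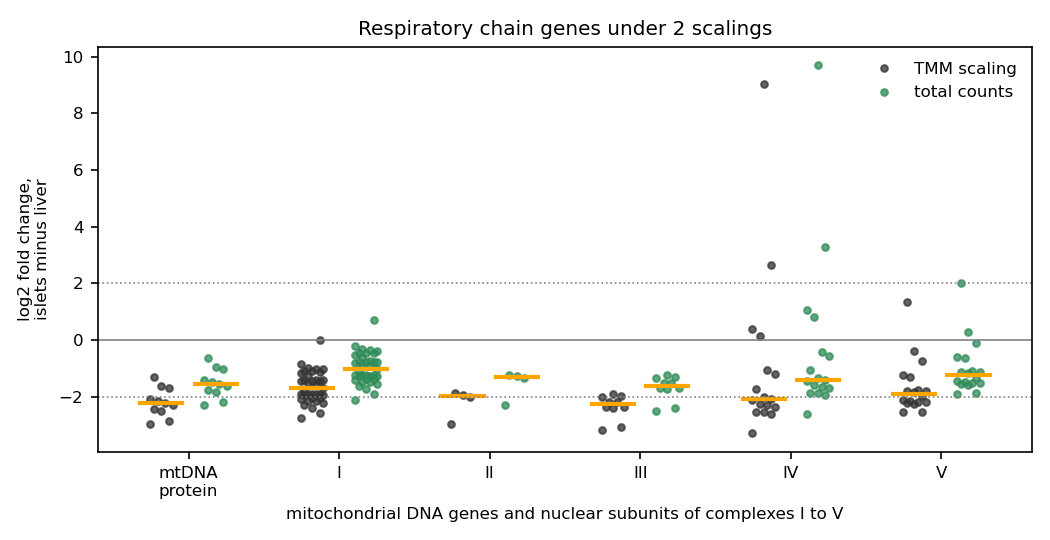
Log2 fold change, islets minus liver, of each tested mitochondrial DNA protein gene and nuclear subunit gene of complexes I to V, under TMM scaling and on total counts, with orange bars at the medians and dotted lines at 4-fold. Medians lie below 0 under both scalings, and the point near 9 in complex IV is Cox6a2.

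Of 26 genes for the upkeep and expression of mitochondrial DNA, 6 (23.1%) were at least 4-fold higher in liver, near the 16.7% of all genes, and none in islets, with a median of -1.10. Tfam, which packages and transcribes mitochondrial DNA and is the gene deleted elsewhere in the series, was at 16.8 to 20.3 TPM in islets (median 19.3) and 26.4 to 31.9 in liver (median 27.9). The groups did not overlap, but the difference of -1.17 ± 0.058 was short of 4-fold, and on total counts it was -0.50. The polymerase genes Polg and Polrmt differed by -1.04 and -0.69. Members further apart included regulators of transcription. Ppara, the receptor that drives fatty acid oxidation genes, was at 0.135 to 0.588 TPM in islets and 49.2 to 99.3 in liver, and the coactivator gene Ppargc1a at 0.487 to 0.907 and 2.85 to 4.90. Top1mt, the mitochondrial topoisomerase, differed by -4.46.

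Genes for fusion, fission and removal of mitochondria had a median of -0.97, with 4 of 24 at least 4-fold higher in liver, the 16.7% found over all genes, and 1 in islets. On total counts none was at least 4-fold higher in liver and 3 were in islets. The mitofusins Mfn1 and Mfn2, which join outer membranes, differed by -1.56 and -1.18. Clec16a, which acts in the removal of damaged mitochondria, was at 3.99 to 8.56 TPM in islets and 5.62 to 6.63 in liver. These ranges overlapped, and its small difference of -0.40 turned to 0.28 on total counts. Miga1, a partner of the mitofusins, was the member at least 4-fold higher in islets, with 8.17 to 11.6 TPM against 0.272 to 0.656, while its relative Miga2 was at 5.21 to 9.73 against 20.2 to 31.2. The Miga2 call was lost on total counts (-1.64).

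The citric acid cycle list, which also holds cytosolic enzymes, had a median of -1.83. Of its 22 genes 9 (40.9%) were at least 4-fold higher in liver and 1 (4.55%) in islets, against 16.7% and 21.4% of all genes. On total counts 4 of the 22 were at least 4-fold higher in liver, against 12.6% of all genes. Citrate synthase, Cs, the entry enzyme, differed by only -1.16, with 20.2 to 32.8 TPM in islets and 40.8 to 43.0 in liver. The cytosolic enzymes Idh1 and Aco1 were further apart, at -4.59 and -3.26. The islet exception was Ogdhl, a second form of the oxoglutarate dehydrogenase subunit (GRCm38 chromosome 14, 32322019 to 32348151, plus strand). It was at 61.5 to 88.4 TPM in islets, with a median of 83.0, and at 0.0415 to 0.163 in liver, a difference of 9.39 ± 0.20 (adjusted p = 2e-16). The common form Ogdh was at 71.3 to 129 and 64.1 to 91.2 TPM, overlapping between the tissues, so Ogdh held 56.8% of the pair in islets and 99.9% in liver. With the Clec control RFD islets the Ogdhl difference was 9.66.

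Carriers of the inner membrane leaned to liver, with a median of -1.41 (-0.74 on total counts) and members on both sides. Of 46 tested, 18 (39.1%) were at least 4-fold higher in liver and 5 (10.9%) in islets, against 16.7% and 21.4% of all genes. On total counts 13 and 10 passed, against 12.6% and 27.9% of all genes. Slc25a13, the aspartate-glutamate carrier that serves the urea cycle, was at 154 to 193 TPM in liver and 2.71 to 5.18 in islets, while the other carrier of that kind, Slc25a12, differed by 1.09 in the other direction. Slc25a15, which brings ornithine into the mitochondrion, differed by -5.08. Slc25a47, a liver carrier, was at 547 to 880 TPM in liver and 0.914 to 1.43 in islets. On the islet side, Slc25a4, the ADP/ATP carrier of heart and muscle, was at 178 to 244 TPM (median 218) against 7.35 to 12.8 in liver, and Slc25a5, the common form, at 182 to 249 against 545 to 604. Slc25a5 held 47.2 ± 2.64% of the pair in islets and 98.4 ± 0.363% in liver, although its call ended on total counts (-1.46). Slc25a36, a carrier of pyrimidine nucleotides, differed by 4.06.

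The calcium uniporter list of 9 genes lay near 0, with summed TPM of 230 to 261 in islets and 230 to 272 in liver. The pore gene Mcu overlapped between tissues, and its difference changed sign with the scaling (-0.55 and 0.12). Its partners did not: Micu3, a calcium sensor known from neurons, was at 12.2 to 16 TPM in islets and 0.884 to 1.12 in liver, and Mcub, the dominant negative pore subunit, at 6.03 to 10.1 and 0.0652 to 0.700. Slc8b1, which exports calcium from mitochondria, was higher in liver, with a difference of -4.60 ± 0.17.

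At the entry of glucose, Slc2a2, the glucose transporter GLUT2, was at 274 to 421 TPM in islets (median 367) and 151 to 176 in liver (median 165). These ranges did not overlap, and the difference was below 4-fold, at 0.49 ± 0.11. Fructose and galactose handling was on the liver side, with Khk at -5.18 and Galk1 at -7.40, while the fructose transporter Slc2a5 was at 128 to 207 TPM in islets and 2.75 to 8.14 in liver.

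Glycolysis as a list had a median near 0 that changed sign with the scaling (-0.27, and 0.40 on total counts). Of 23 genes 8 (34.8%) were at least 4-fold higher in liver and 4 (17.4%) in islets, against 16.7% and 21.4% of all genes. On total counts 4 and 6 passed, against 12.6% and 27.9%. The summed TPM was 1167 ± 100 in islets (SD, n = 8) and 5385 ± 196 in liver (SD, n = 6), without overlap. Glycolysis differed by isoform. Pklr, the liver pyruvate kinase, was at 148 to 262 TPM in liver and 6.68 to 11.9 in islets, and Pkm at 8.79 to 14.6 and 263 to 384. Pkm made nearly all of the islet pair, where Pklr held 3.34 ± 0.582%, against 93.7 ± 1.99% in liver. Eno2, the neuronal enolase, differed by 7.97 and was at 19.5 to 27.2 TPM in islets. Gapdh was at least 4-fold higher in liver under TMM and not on total counts (-2.25 and -1.58).

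Genes known for making and releasing glucose differed by member between the tissues. Of 21 gluconeogenesis and glycogen genes tested, 13 were at least 4-fold higher in liver, against 16.7% of all genes, and 2 in islets (11 and 4 on total counts), with a median of -3.22. Those 2 were the islet members of the pairs whose upstream sequences are printed above. G6pc was at 227 to 541 TPM in liver, with a median of 323, and at most 1 count in any islet library, at least 10354-fold higher in liver when islets are set at 3 counts per library. G6pc2 was at 990 to 3930 TPM in islets, with a median of 2802, and 0 to 0.172 in liver. Pck1 was at 1851 to 2866 TPM in liver and 0 to 0.111 in islets. Pck2 was at 28.3 to 44.2 TPM in islets and 0.775 to 1.47 in liver. The 4 genes did not overlap between tissues in any library. Fbp1, fructose bisphosphatase, differed by -8.09, and the glycogen enzymes Gys2 and Pygl by -11.09 and -6.53, while their counterparts outside liver, Gys1 and Pygb, differed by 1.24 and 1.15. In the Clec control RFD islets G6pc2 was at 1530 to 2869 TPM and Pck2 at 30.2 to 40.2.

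For pyruvate and lactate a list of genes known to be kept low in beta cells was read. Of 21 such genes 16 were at least 4-fold higher in liver and none in islets, with a median of -5.31. Ldha, which makes lactate, was at 4.31 to 7.64 TPM in islets (median 5.22) and 462 to 663 in liver (median 507), a difference of -7.16 ± 0.16 (adjusted p = 2.4e-16). Slc16a1, the lactate and pyruvate transporter MCT1, was at 0.250 to 0.694 TPM in islets and 13.3 to 25.6 in liver. Islet replicate 3 had the highest summed level of the list (119 TPM, the others 74.4 to 90.5) and also the highest sums for macrophage markers (396, the others 209 to 256), complex II, complex V and glycolysis. The part of these in the islet levels of the list was not tested. Ldhb, the other lactate dehydrogenase subunit, was at 14.8 to 23.6 TPM in islets and 2.93 to 5.86 in liver, a difference of 1.40 (2.07 on total counts), so Ldha held 23.3% of the pair in islets and 99.1% in liver.

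Entry of pyruvate into mitochondria also leaned to liver, by the carrier genes Mpc1 and Mpc2 (-3.28 and -3.51). Pcx, pyruvate carboxylase, was higher in liver as well, at 70.0 to 102 TPM in islets and 234 to 302 in liver. The Pcx difference of -2.20 became -1.53 on total counts. Genes that switch pyruvate dehydrogenase lay on both sides. The kinases Pdk3 and Pdk4 and the phosphatase Pdp1 were at least 4-fold higher in islets (3.82, 2.25 and 3.15), the kinases Pdk1 and Pdk2 at least 4-fold higher in liver (-2.48 and -2.62, and -1.81 and -1.95 on total counts), and Pdp2 and Pdpr differed by -1.91 and -0.77. Pdk3 was at 9.33 to 14 TPM in islets and 0.436 to 0.814 in liver. Pdk4 was at 22.5 to 52.7 TPM in the 5 female islet libraries and 10.1 to 15.4 in the 3 male ones, against 1.64 to 7.55 in liver. Its difference of 2.25 fell to 1.19 against male islets alone and to 1.93 with Xist as a covariate, both short of 4-fold.

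**Figure D3:**
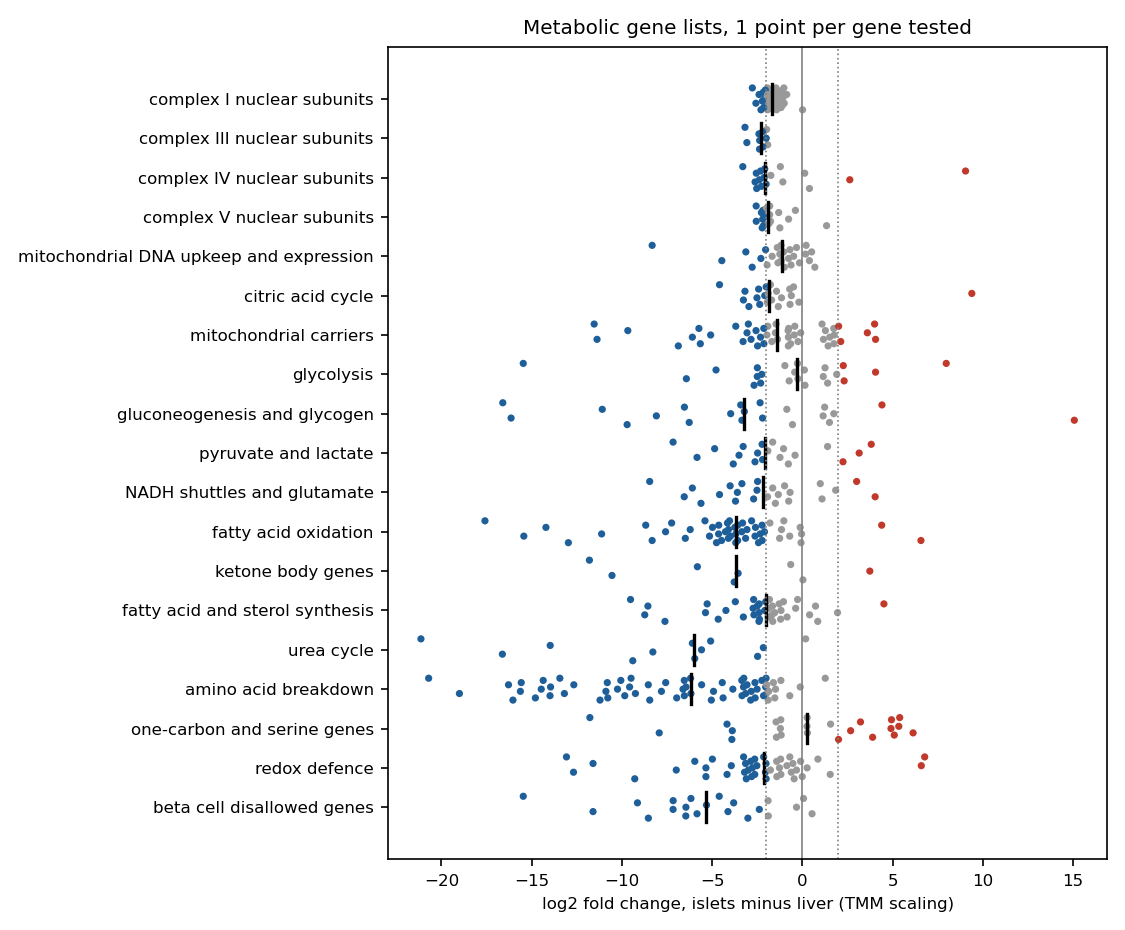
Log2 fold change, islets minus liver, for each tested gene of 19 metabolic lists, with the list median as a black bar. Blue points are at least 4-fold higher in liver, red points at least 4-fold higher in islets and grey points neither, with dotted lines at 4-fold. Amino acid breakdown and the urea cycle reach furthest to the liver side, and the one-carbon and serine list holds the most red points.

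Fatty acid oxidation was a liver list: 41 of 51 genes tested were at least 4-fold higher in liver, 2 in islets, with a median of -3.69 (34 and -3.02 on total counts), and the summed TPM was 964 to 1226 in islets and 9179 to 11980 in liver. Acaa2, the mitochondrial thiolase, was at 29.3 to 47.7 TPM in islets (median 37.7) and 2020 to 2393 in liver (median 2232). Cpt1a, the gate of fatty acids into mitochondria, was at 6.55 to 20.3 TPM in islets and 107 to 152 in liver. The islet exceptions were Cpt1c, a relative of Cpt1a known from brain, with 5.33 to 6.83 TPM against 0.124 to 0.245, and Acsl6, a brain acyl-CoA synthetase, with 3.22 to 5.10 against at most 0.0968.

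Of the 8 ketone body genes tested 5 were at least 4-fold higher in liver. Oxct1, the enzyme that lets tissues use ketone bodies and that hepatocytes lack, was at 69.8 to 100 TPM in islets (median 75.8) and 3.23 to 5.24 in liver, a difference of 3.74 ± 0.13. In fatty acid and sterol synthesis 20 of 39 were at least 4-fold higher in liver (13 on total counts) and 1 in islets (2 on total counts). The 1 was Scd2, with 64.1 to 136 TPM in islets and 2.10 to 2.92 in liver, against Scd1 at 2.56 to 5.90 and 211 to 1091. Acly, which turns citrate into cytosolic acetyl-CoA, was at 527 to 979 TPM in islets and 110 to 162 in liver, a difference of 1.95 that missed 4-fold under TMM and passed it on total counts (2.62).

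Nitrogen metabolism lay far to the liver side. In the urea cycle 11 of 12 genes were at least 4-fold higher in liver, with a median of -6.03, and the summed TPM was 54.6 to 103 in islets and 5179 to 7220 in liver. Cps1, which takes up ammonia, was at 1017 to 1846 TPM in liver and 0 counts in all 8 islet libraries, at least 94510-fold higher in liver at the same floor. Ass1 was at 6.49 to 21.8 TPM in islets and 1651 to 2823 in liver, and Arg1 at 30.6 to 60.8 and 1235 to 1554. Of 67 amino acid breakdown genes tested, 56 were at least 4-fold higher in liver and none in islets, with a median of -6.19. Glud1, glutamate dehydrogenase, was at 63.2 to 83.5 TPM in islets and 650 to 997 in liver.

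Genes for the synthesis of serine, proline, asparagine and one-carbon units lay on both sides. Of 24 such genes 10 were at least 4-fold higher in islets and 5 in liver, where the background shares were 21.4% and 16.7%, with a median of 0.27 (-0.054 with the Clec control RFD islets). By adjusted p alone 12 were higher in islets and 10 in liver, and the mean summed TPM was 550 in islets and 1205 in liver. Asns, asparagine synthetase, was at 60.3 to 123 TPM in islets (median 67.4) and 0.220 to 1.71 in liver (median 0.524). Mthfd2, the mitochondrial folate dehydrogenase, was at 27.1 to 78.2 (median 40.7) and 0.481 to 0.972 (median 0.769), and Aldh18a1, which opens proline synthesis, at 36.0 to 70.1 and 0.594 to 1.08. Phgdh, Pycr1 and Aldh1l2 differed by 4.94, 4.91 and 5.09. The folate enzymes of liver were other genes, Aldh1l1 and Shmt1 (-11.77 and -7.93), and Shmt2 was also on the liver side (-4.17). Several of these islet genes are targets of Atf4, the factor of the integrated stress response. Asns, Mthfd2, Phgdh, Pycr1, Aldh1l2 and Shmt2 are also in the list of that response, so the counts overlap. Of 39 genes of that response 12 (30.8%) were at least 4-fold higher in islets and 7 (17.9%) in liver, where the shares over all genes were 21.4% and 16.7%, and Atf4 itself was at 132 to 228 TPM in islets and 78.8 to 135 in liver, a difference of 0.22 ± 0.13 (adjusted p = 0.12). Members on the liver side were Cth (-9.49), of cysteine synthesis, and the hormone gene Fgf21 (-5.14). Only the islets had been cultured overnight, so culture and tissue cannot be told apart here.

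Redox defence was a liver list with isoform exceptions: 26 of 45 were at least 4-fold higher in liver (19 on total counts) and 2 in islets. Cat, catalase, was at 4.45 to 6.44 TPM in islets (median 5.63) and 1807 to 2884 in liver (median 2195), and Gpx1 at 88.6 to 123 and 3742 to 4348. Gpx3, the secreted glutathione peroxidase, went the other way, at 528 to 1410 TPM in islets (median 896) and 4.35 to 7.49 in liver, a difference of 6.78 ± 0.33, as did Gpx2, at 6.18 to 16.4 and 0.0286 to 0.225. Haem and iron-sulphur synthesis had 9 of 25 at least 4-fold higher in liver (4 on total counts), led by Alas1, the first enzyme of haem synthesis, at 8.42 to 10.5 TPM and 113 to 582. Of 26 bile acid and sterol genes 24, and of 33 cytochrome P450 genes of foreign compounds 31, were at least 4-fold higher in liver. Cyp7a1, the rate-limiting enzyme of bile acid synthesis, was at 62.9 to 114 TPM in liver and 0 counts in every islet library.

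Of 24 mitochondrial proteases and chaperones 8 were at least 4-fold higher in liver, and 2 on total counts, against 16.7% and 12.6% of all genes. Hspd1, the chaperonin, moved from -2.13 to -1.45. The protease gene Lonp1 differed by -1.97. Of 13 coenzyme Q genes 3 (23.1%, against 16.7% of all genes) were at least 4-fold higher in liver, among them Coq3 (-3.32) and Coq8a (-3.16).

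Over all 35 pairs of related metabolic genes that were compared, 11 lay at least 4-fold apart in opposite directions (10 on total counts, where Slc25a5 and Slc25a4, Cox4i1 and Cox4i2, and Cox6a1 and Cox6a2 no longer counted and 2 other pairs did), and in 15 another member led in islets than in liver. Beside the pairs above, Me1, the cytosolic malic enzyme, differed by -2.70 and Me3, a mitochondrial one, by 3.01, with Me3 at no more than 0.460 TPM in any islet library. Levels within a pair are compared as TPM, per length of transcript. For close copies such as these, reads shared between the genes could be split by the counting, and single values remain uncertain to that degree.

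**Figure D4:**
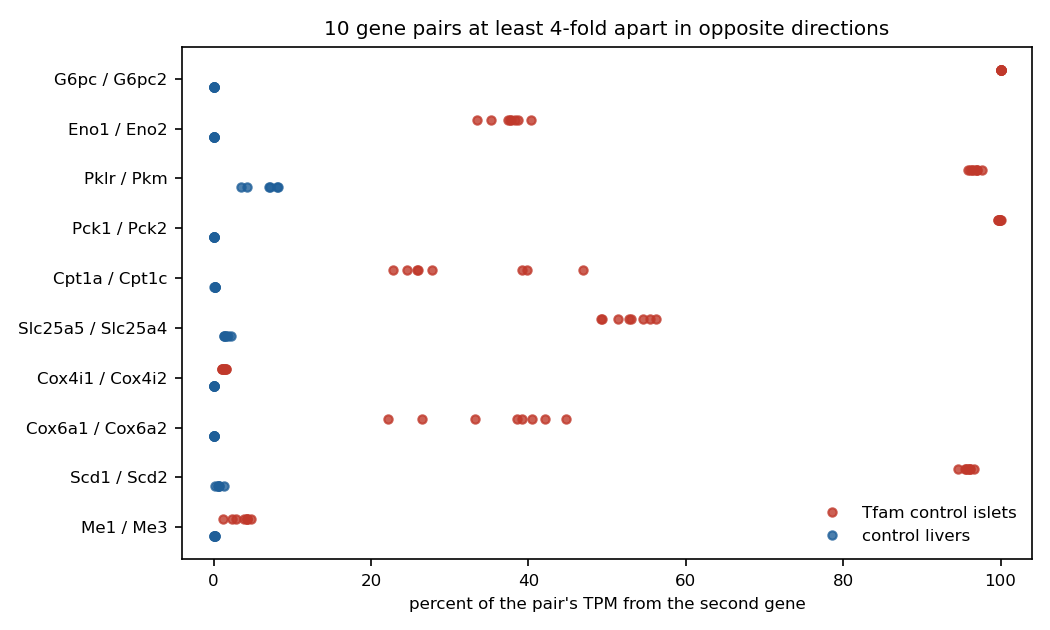
Percent of each pair's TPM that came from the second gene named, 1 point per library, for 10 pairs at least 4-fold apart in opposite directions. Livers lie at or near 0 for each pair, whereas islets lie near 100 for G6pc2, Pck2, Pkm and Scd2, between 22 and 57 for Eno2, Cpt1c, Slc25a4 and Cox6a2, and near 0 for Cox4i2 and Me3.

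Transcription factors followed the tissues. Of 39 tested, 14 were at least 4-fold higher in islets and 17 in liver. Mafa, an activator of the insulin genes, was at 527 to 869 TPM in islets and at most 0.0739 in liver, and Pdx1 and Nkx6-1 were at 0 counts in every liver library. Hnf4a, shared by both tissues, was at 11.3 to 22 TPM in islets and 316 to 471 in liver, and Cebpa at 1.29 to 3.25 and 477 to 579.

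The contrasts were set beside the second islet group, which shares the livers and so is no independent comparison. Of 166 genes followed singly that were at least 4-fold apart, 156 were also at least 4-fold apart in that direction with the Clec control RFD islets. The 10 that were not are mt-Nd1, mt-Nd2, mt-Nd4, mt-Cytb, mt-Co1, Cox6a1 (-1.91), Pdk2 (-1.62), Mief2 (-1.996), Fech (-1.97) and Ttr (-1.34), the first 5 given above, and the calls of all but mt-Nd2 and mt-Nd4 also ended on total counts. In the Clec control RFD islets Asns was at 63.7 to 87.8 TPM, Mthfd2 at 19.7 to 34.6, Ldha at 4.90 to 5.64 and Cat at 4.36 to 8.37, each range overlapping that of the Tfam controls. Oxct1 was lower there, at 40.9 to 47.6, without overlap.

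**Figure D5:**
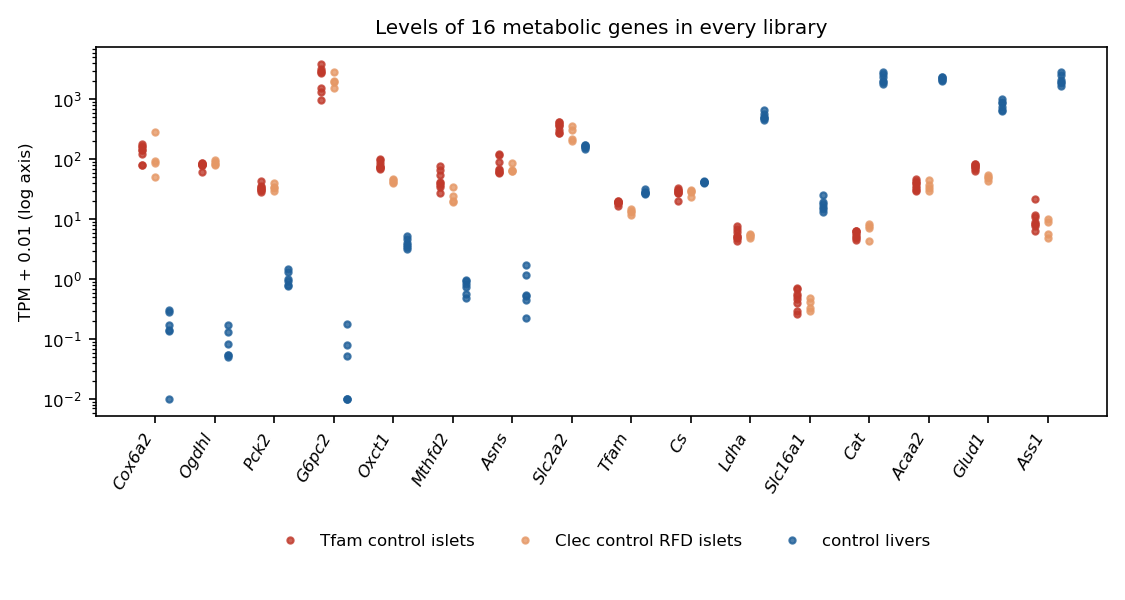
TPM of 16 metabolic genes in each library of the 2 control islet groups and the livers, on a log axis with 0.01 added to each value. For Slc2a2, Tfam and Cs the groups lie close together, and for the other 13 the livers lie well above or below both islet groups.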

How the data were processed

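RNA was measured by sequencing in 8 islet and 6 liver control libraries, and 4 and 6 further control islet libraries (Clec control on RFD and on HFD) served as alternatives. The deposited tables, per the file headers, give raw counts, CPM and TPM for 55487 genes. The submitters' processing notes name STAR 2.6.1b, RSEM 1.3.1, featureCounts and the GRCm38 build, with no role stated for each. In the deposited TPM each of the 11039 genes checked was the count over 1 fixed length, within 1%; CPM was the count over the total. Counts were tested here with edgeR 4.0.16 (R 4.3.3; TMM, filterByExpr, quasi-likelihood F-test, Benjamini-Hochberg over 18004 genes) on the 14 libraries alone. A call needed an adjusted p of 0.05 or less and a 4-fold difference. Where a tissue had 3 counts or fewer in every library, a lower bound of the fold against 3 counts per library is given and the fitted value is no bound. Libraries are taken as separate samples; p-values measure the spread between them. Alternatives were other scalings, filters, tests (DESeq2 1.42.0, limma 3.58.1 on log2(TPM + 1)), islet groups, sexes and left-out libraries. The fit was also tested on simulated data.

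The members, the 47 gene lists and the 35 pairs were chosen with earlier results of these data known. Named genes are any member of a list of 30 or fewer and of the pairs; from longer lists the 8 largest changes in each direction and the 6 highest levels; and the 10 highest genes called per direction. The labels number libraries 1 to 6 in both tissues, but the tissues come from separate experiments. Xist was at 45.4 to 77.9 TPM in liver replicates 3, 4 and 5 and Ddx3y, a Y-linked gene, at 35.6 to 37.1 in replicates 1, 2 and 6, so the livers held both sexes. Gene positions are from GENCODE M21 and upstream sequences from RefSeq (GRCm38.p6); both promoters were in the table for 7 of the 11 opposite pairs. Some genes of the lists are counted but not reported here by name.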

Additional observations from a re-analysis of the deposited data

Results flagged for a closer look

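In 9 of 96 groups of libraries examined, 1 library lay far from the rest of its tissue in a summed level (gap over range past Dixon's 95% critical value, which chance passes in about 1 of 20 groups). Islet replicate 3 was highest for complex II (549 TPM, the others 427 to 460), complex V (2356, the others 1651 to 1981), glycolysis (1384, the others 1024 to 1184), the disallowed genes (119, the others 74.4 to 90.5) and macrophage markers (396, the others 209 to 256). Islet replicate 4, with the highest acinar marker sum, was lowest for mitochondrial DNA upkeep (159 TPM, the others 198 to 223), fusion and fission (680, the others 797 to 852), fatty acid oxidation (964, the others 1104 to 1226) and haem synthesis (440, the others 528 to 582). No named gene lost its 4-fold call when either library was left out.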

How the results depend on the processing

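The counts of genes at least 4-fold higher in islets and of genes at least 4-fold higher in liver (3854 and 3007) were 5811 and 5176 with no filter on low counts, 1279 and 1627 with at least 10 counts in every library, and 2170 and 1513 by limma on log2(TPM + 1). Dropping single libraries in turn gave 3712 to 4016 and 2975 to 3069, and the replicate block 3564 and 2978. The library numbers do not pair the tissues: over 6 pairs the correlation of deviations was -0.022 to 0.067. The liver minus islet difference in the mitochondrial DNA share (2.70 points) was 5.54 points of TPM, 1.73 points with the Clec control RFD islets and 2.56 to 2.80 points without 1 library. Of the 166 genes followed singly and called, none changed sign under any of the 29 alternatives that gave it a value. With at least 10 counts in every library 114 kept the call, 1 lost it and the rest were filtered out. On total counts 23 lost the call, under upper quartile scaling 5, by limma 27, and by glmTreat tested against 4-fold 11. Only Krt19, a duct marker, lost it without 1 library, liver replicate 4 (-0.57). Of all list genes tested, 52 changed sign on total counts, none of them called. Leaving aside the cell type markers, the medians that changed sign by limma, on total counts and on totals without the 100 most abundant genes were those of calcium uptake (0.037, 0.12 and 0.080) and glycolysis (0.31, 0.40 and 0.36). So did Clec16a (0.16, 0.28 and 0.23), Ogdh (0.40, 0.48 and 0.44) and Mcu (0.037, 0.12 and 0.080). The one-carbon median was -0.054 with the Clec control RFD islets. The median of the duct markers (-0.12) was 0.54 on total counts, 0.50 on totals without the 100 most abundant genes, 0.036 under upper quartile scaling, and 0.62 and 1.28 with the Clec control RFD and HFD islets. The cause of these changes was not tested.

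Tissue is confounded with experiment, culture and freezing, which no alternative resolves. Differences near 4-fold cross the limit with the scaling, as in the nuclear oxidative phosphorylation genes. Of these 38 of 86 passed on the liver side under TMM and 5 on total counts, against 16.7% and 12.6% of all genes. Genes at 0 to 3 counts in a tissue have lower bounds only.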
